A study of Homo sapiens with 8 samples.

Results

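SMAD3 IP was compared with mock IP in A549 cells stimulated with TGFβ1, on 4 of the 8 promoter arrays of the series. The 4 arrays were taken as every array labelled stimulated, and they hold 2 replicates, each hybridised to 2 slides with different probes. A549 is an established line derived from a human lung adenocarcinoma and is used as a model of alveolar epithelium. The stimulated cells had received 2 ng/ml TGFβ1 for up to 2 h according to the labels, and the other 4 arrays came from cells without TGFβ1. All cells had been serum-starved before fixation with formaldehyde. On every array the DNA from the SMAD3 antibody was labelled with Cy5 and the DNA from an anti-flag antibody, the mock IP, with Cy3, so no array had the dyes exchanged. Both DNA pools had been amplified by linker PCR. The arrays carry genomic DNA and no RNA, so the cell type could not be checked against marker transcripts. The labels call the replicates biological, and whether they came from separate immunoprecipitations or from the same amplified DNA was not tested. The p-values measure only the spread between these 2 per condition, which may be technical.

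SMAD3 is an intracellular mediator of TGFβ signalling. The ligand binds a type II receptor, which activates a type I receptor kinase. The kinase phosphorylates SMAD2 and SMAD3, which join SMAD4 and move into the nucleus, where the complex binds short elements that contain CAGAC together with other transcription factors. SMAD6 and SMAD7 are inhibitory members of the family that are themselves induced by the pathway. In lung epithelium the pathway is known for growth arrest, for extracellular matrix production and for epithelial-mesenchymal transition (EMT).

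The value throughout is the log2 ratio of the SMAD3 IP signal to the mock IP signal, centred on the median of its array, so 1 stands for a ratio 2-fold above the middle probe of the array. A total of 473007 probes were used, and in both channels 38.7% to 50.9% of the probes of a stimulated array were well above background. A probe for which this held in both stimulated replicates is called measured below. The log2 ratios of the stimulated replicates correlated with a Pearson r of 0.931 on slide 1 and 0.908 on slide 2. Between a stimulated and an unstimulated array of the same slide r was 0.19 to 0.23, while the SMAD3 signals alone correlated with 0.79 to 0.82 and the mock signals with 0.68 to 0.71. These correlations are across probes, which share fragments and are not independent. Neighbouring probes 100 to 150 bp apart had an r of 0.393 and 0.385 in the stimulated replicates, and probes over 3000 bp apart had 0.017 and 0.023.

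To show the DNA at promoters with high and low values near the start, the 250 bases upstream of the RefSeq start (GRCh38.p14, written 5′ to 3′ on the strand of the gene) are given for 5 genes. MYLPF and RAD51C had ratios among the highest within 250 bp of the start and LIN37 and TEX9 among the lowest of the named promoters, and INHBB was the highest of the ligand genes. Capitals mark CAGAC or its reverse complement GTCTG.
MYLPF, chr16:30370684-30370933, plus strand: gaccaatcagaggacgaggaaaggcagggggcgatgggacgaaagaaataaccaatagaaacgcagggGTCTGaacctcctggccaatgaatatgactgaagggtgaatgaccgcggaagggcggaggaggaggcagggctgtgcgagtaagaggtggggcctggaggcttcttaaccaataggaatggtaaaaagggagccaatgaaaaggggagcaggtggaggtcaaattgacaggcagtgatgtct
RAD51C, chr17:58692323-58692572, plus strand: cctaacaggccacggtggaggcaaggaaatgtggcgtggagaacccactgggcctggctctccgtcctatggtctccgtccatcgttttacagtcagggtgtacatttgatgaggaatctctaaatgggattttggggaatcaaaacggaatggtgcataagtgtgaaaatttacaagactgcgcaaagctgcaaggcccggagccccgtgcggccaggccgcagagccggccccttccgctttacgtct
INHBB, chr2:120345886-120346135, plus strand: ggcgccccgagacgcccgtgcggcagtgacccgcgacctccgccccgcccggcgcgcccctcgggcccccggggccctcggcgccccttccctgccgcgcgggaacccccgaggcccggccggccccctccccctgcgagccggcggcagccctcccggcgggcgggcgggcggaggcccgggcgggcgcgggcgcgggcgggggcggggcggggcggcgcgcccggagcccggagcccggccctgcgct
LIN37, chr19:35748326-35748575, plus strand: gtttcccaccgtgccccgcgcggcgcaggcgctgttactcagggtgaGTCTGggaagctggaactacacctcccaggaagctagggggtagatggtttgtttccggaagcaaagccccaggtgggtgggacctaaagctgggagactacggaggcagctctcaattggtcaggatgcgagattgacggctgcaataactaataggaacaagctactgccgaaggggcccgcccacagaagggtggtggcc
TEX9, chr15:56365176-56365425, plus strand: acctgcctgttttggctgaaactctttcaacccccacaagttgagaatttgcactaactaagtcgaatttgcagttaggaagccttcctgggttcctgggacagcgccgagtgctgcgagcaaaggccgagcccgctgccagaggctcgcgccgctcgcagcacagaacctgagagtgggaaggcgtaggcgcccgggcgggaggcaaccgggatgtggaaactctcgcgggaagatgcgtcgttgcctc
The capitals fall once each in the MYLPF and LIN37 stretches and in none of the other three. INHBB is 89.6% G and C over this stretch, and the other four hold less. The array probes themselves were not printed, because their sequences were not analysed here.

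By distance to the transcription start, SMAD3 IP was highest relative to mock IP at the start itself. Among measured probes from 0 to 250 bp downstream of a start, the median log2 ratio was 0.14 in stimulated replicate 1 and 0.13 in replicate 2, and from 250 bp upstream to the start it was 0.02 and 0.00. It fell on both sides. From 500 to 1000 bp upstream it was -0.51 and -0.58, and from 3000 to 5000 bp upstream -0.80 and -0.94. The measured probes within 250 bp of a start lay 0.86 and 0.98 above those over 2000 bp upstream in the stimulated replicates (mean 0.92 ± 0.08, SD, n = 2). In the unstimulated replicates the same probes gave 0.65 and 0.81 (0.73 ± 0.11, SD, n = 2). These probes were picked by the stimulated arrays alone. In unstimulated cells 94.4% of them at 0 to 250 bp downstream were well above background, and 81.6% at 3000 to 5000 bp upstream. The unstimulated medians in these bins were 0.22 and 0.22, and -0.50 and -0.67. The near to far difference was larger in both stimulated replicates, and the part of this probe choice was not tested. An exact permutation test of 2 against 2 gave a two-sided p of 0.333, the smallest this design allows.

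The probes called higher in SMAD3 IP followed the same profile. With limma, 38879 of all probes (8.22%) were higher and 87387 (18.5%) lower than 0 in stimulated cells at an adjusted p under 0.05. This balance rested on the centring, with 58440 higher and 57028 lower after loess and 220754 and 72015 without centring. From 0 to 250 bp downstream of the start 26.3% of probes were higher, from 250 bp upstream to the start 21.6%, and from 3000 to 5000 bp upstream 3.62%. The share of lower probes moved less, from 15.4% at 2000 to 3000 bp upstream to 24.0% at 250 to 500 bp downstream. The share of measured probes moved with distance too, from 25.7% at 3000 to 5000 bp upstream to 76.5% at 0 to 250 bp downstream, and its part in the shares of calls was not tested. Over all probes, dim ones included, every bin had a median between -0.02 and 0.04 in both stimulated replicates. The unstimulated shares of higher probes were 27.8% at 0 to 250 bp downstream and 4.27% at 3000 to 5000 bp upstream, against 8.92% over all probes.

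**Figure D1:**
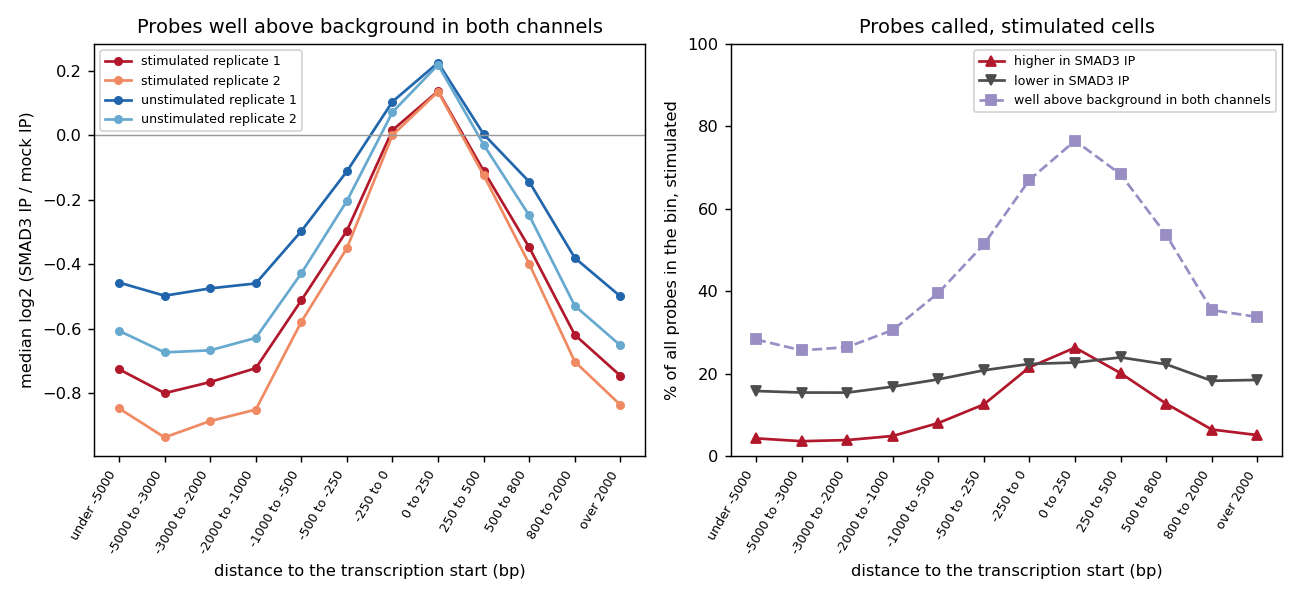
Left, median log2 ratio (SMAD3 IP over mock IP) by distance to the transcription start, for probes well above background in both channels, with a line per replicate. Right, share of all probes in a bin that were called higher or lower in stimulated cells or that were measured, where the higher share reaches 26.3% at 0 to 250 bp downstream.

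The classes of the array annotation differed less than the distance bins. Probes inside genes were called higher in 9.70% of cases and promoter probes in 6.76%. Probes of divergent promoters, which serve a pair of genes in opposite directions, were higher in 9.73% of cases, and probes downstream of genes in 4.39%. Among measured probes the median log2 ratio was -0.44 and -0.50 inside genes, -0.56 and -0.65 in promoters, -0.49 and -0.52 in divergent promoters, and -0.73 and -0.84 downstream of genes. Every class thus had a median below the middle of the array in both replicates.

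A promoter was taken as the mean of at least 3 probes that lay at most 2000 bp upstream or 800 bp downstream of the annotated start. Of 16299 promoters, 2692 (16.5%) were higher in SMAD3 IP and 6931 (42.5%) lower in stimulated cells. The middle promoter had a log2 ratio of -0.18, with a 5th percentile of -1.68 and a 95th percentile of 0.73, and the median SD between replicates was 0.12. The split rested on the centring. Without centring 9900 promoters were higher and 2628 lower, with centring on the mean 7351 and 3863, with loess 6993 and 3372, and with the normexp background correction 1938 and 1727. The middle promoter then lay at 0.42, 0.19, 0.16 and 0.04. Within 250 bp of the start alone, 2631 (29.2%) of 9001 promoters were higher and 2698 (30.0%) lower.

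In unstimulated cells 3371 promoters (20.7%) were higher and 6218 (38.1%) lower. Of the promoters higher after stimulation, 1341 (49.8%) were also higher in unstimulated cells, which is 39.8% of those higher there, and 464 (17.2%) were lower there. Of the promoters lower after stimulation, 3694 (53.3%) were also lower in unstimulated cells and 808 (11.7%) were higher. The contrast of the conditions itself called 3304 promoters (20.3%) higher and 4479 (27.5%) lower after stimulation. Without centring these became 4440 and 3560, with loess 4038 and 3943, and with the normexp correction 659 and 1013.

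**Figure D2:**
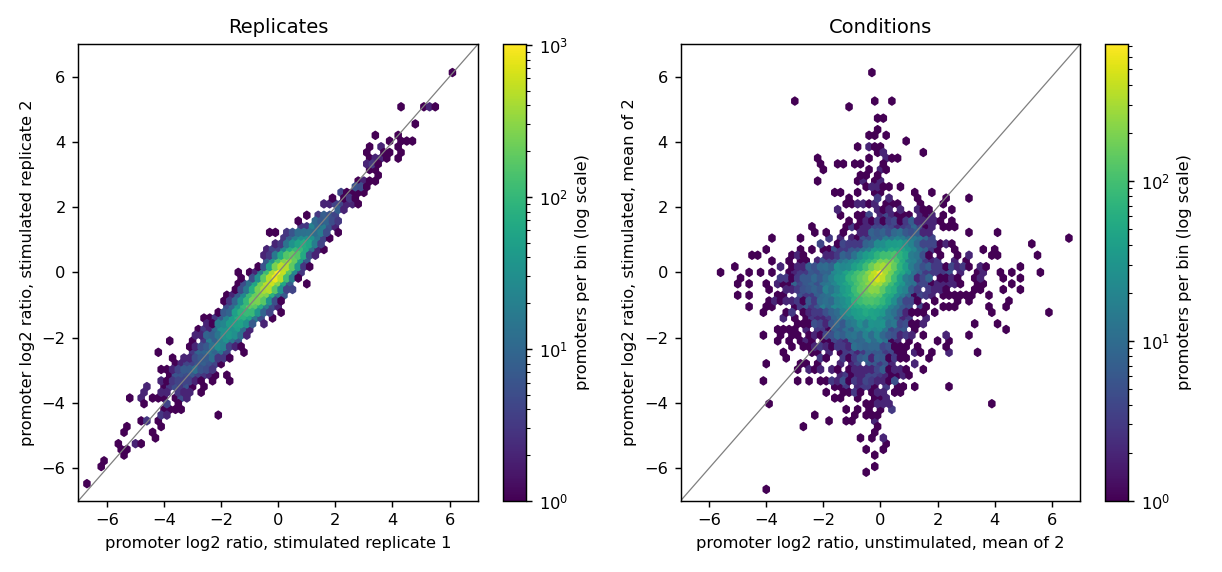
Promoter log2 ratios of 16299 promoters, with color for the number of promoters per bin on a log scale and the diagonal in grey. Left, stimulated replicate 2 against replicate 1, which lie along the diagonal; right, the stimulated mean against the unstimulated mean, where many promoters far from 0 in one condition lie near 0 in the other.

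The SMAD family itself was split. Of 8 SMAD promoters, 3 were higher in SMAD3 IP (37.5%), 3 lower (37.5%) and 2 passed in neither direction. Over all promoters 16.5% were higher and 42.5% lower. The SMAD median of 0.08 was 0.26 above that of all promoters, and above it under each of the other scalings as well. In unstimulated cells 3 SMAD promoters were higher and 1 lower, with a median 0.29 above that of all promoters. SMAD4, the common partner of the receptor-regulated SMADs, had 1.04 and 0.95 in the stimulated replicates and 0.59 and 0.42 in the unstimulated ones. It was the highest of the family (adjusted p = 5.91e-05), but did not pass with the normexp correction, at 0.51 (adjusted p = 0.212). The 0.49 gained with stimulation (adjusted p = 0.0203) no longer passed without either stimulated replicate or without unstimulated replicate 2, at 0.40 to 0.53. Single SMAD4 probes moved in opposite directions. The highest measured one, 567 bp upstream, had 3.93 and 3.85 after stimulation and -1.43 and -1.86 before. The lowest, 10 bp upstream, had -0.58 and -0.30 against 2.90 and 2.79. SMAD7 had 0.50 and 0.62, against 0.53 and 0.46 in unstimulated cells. Its ratio was above 0 (adjusted p = 0.00128), the conditions overlapped, and over all probes of the gene it turned to -0.31. SMAD3, the gene of the precipitated protein, had 0.18 and 0.41, against 0.21 and 0.18. Its ratio (adjusted p = 0.0332) did not pass without replicate 2, at 0.18, nor over its measured probes alone (adjusted p = 0.073). SMAD6 lay at the other end, with -1.90 and -1.51 after stimulation and 0.07 and -0.06 before. The groups did not overlap, and SMAD6 fell by 1.71 (adjusted p = 8.74e-05). Within the SMAD6 promoter the measured probes ranged from -8.02 at 375 bp downstream to 2.06 at 1249 bp upstream of the start. The probe 1249 bp upstream did not fall, with 2.00 and 2.12 after stimulation and 1.44 and 1.48 before. The probe 375 bp downstream had -1.33 and -0.68 in unstimulated cells, where it was not well above background throughout.

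Among 34 promoters of SMAD cofactors and regulators, 10 were higher (29.4%) and 9 lower (26.5%), against 16.5% and 42.5% of all promoters. Their median stood 0.25 above that of all promoters, with the same sign under the other scalings. In unstimulated cells 38.2% of them were higher and 35.3% lower, with a median 0.24 above that of all promoters. The highest was TRIM33, a ubiquitin ligase that binds SMAD4 and activated SMADs, with 1.67 and 1.25 in stimulated and 1.19 and 1.00 in unstimulated cells (adjusted p = 2.49e-05 against 0). Over all probes of the gene it turned to -0.086 (adjusted p = 0.318). The similar means of the conditions came from different probes. The highest measured TRIM33 probe, 438 bp upstream, had 4.10 and 3.59 after stimulation and -1.24 and -1.37 before. The lowest, 462 bp downstream, had -0.83 and -0.82 against 4.16 and 4.17. SKI, a co-repressor of SMADs, had 1.08 and 0.85, and the co-activator CREBBP had 0.38 and 0.72, and both were called higher. RNF111, a ubiquitin ligase that degrades SKI and SMAD7, was the lowest, with -3.25 and -2.95 after stimulation and -0.56 and -0.18 before (adjusted p of the change = 1.12e-05). With the median of the probes the change of RNF111 was -2.58 and did not pass (adjusted p = 0.106). Its lowest measured probe, 20 bp upstream of the start, had a mean of -7.27, and a probe 385 bp upstream had 1.17.

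Among 19 promoters of ligands and ligand-binding proteins, 2 were higher (10.5%) and 10 lower (52.6%), against 16.5% and 42.5% of all promoters. Their median of -0.33 was 0.14 below that of all promoters, and below it under the other scalings too. INHBB, which encodes the activin βB subunit, was the highest, with 1.24 and 0.91 after stimulation against 0.00 and 0.27 before (adjusted p of the change = 0.00227). Within 250 bp of its start the values were 2.16 and 1.90 in the stimulated replicates, over the G and C rich stretch printed above. Over all probes of the gene the stimulated value turned to -0.30 and the change was 0.16 (adjusted p = 0.403). The INHBB change also did not pass with normexp (0.83, adjusted p = 0.107) or with the median of the probes (0.57, adjusted p = 0.0523). LEFTY2, a secreted inhibitor of Nodal signalling, was the lowest, with -2.12 and -2.18 against -1.07 and -0.92 (adjusted p of the change = 0.000254). With the median of the probes the LEFTY2 change was -0.30 and did not pass (adjusted p = 0.524). TGFB1 had -0.04 and 0.12 after stimulation and -0.73 and -0.78 before. Its stimulated ratio was not called (adjusted p = 0.729), the groups did not overlap, and the difference of 0.80 passed (adjusted p = 0.00182) but not within 250 bp of the start, where it was 0.25 (adjusted p = 0.299). LTBP3, which binds the latent TGFβ complex, had -0.86 and -0.67 after stimulation against 0.23 and 0.41 before. It fell by 1.08 (adjusted p = 0.000508), while the median of its probes gave a change of 0.10 that did not pass (adjusted p = 0.772).

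Of 17 receptor and co-receptor promoters, 3 were higher (17.6%) and 6 lower (35.3%), near the 16.5% and 42.5% of all promoters. BAMBI, a pseudoreceptor that blocks type I receptors, was the highest with 0.63 and 0.37 (adjusted p = 0.00329), against 0.22 and 0.19 in unstimulated cells. Without replicate 1 its adjusted p was 0.0544. TGFBR1, the type I receptor of TGFβ, had -0.82 and -1.08 after stimulation and was called lower. ACVR1B, an activin type I receptor, was the lowest with -1.09 and -1.29, against -0.20 and -0.42. Only 3 of its 8 probes were measured in the stimulated replicates, and their mean was 0.30 and -0.06, so the low promoter mean came from probes that were not well above background in both channels.

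Of 40 promoters of early TGFβ targets, 9 were higher (22.5%) and 18 lower (45.0%), close to the shares over all promoters, and the median differed from that of all promoters by less than 0.01 and changed sign with the scaling. KLF11, a repressor induced early by TGFβ, was the highest with 0.82 and 0.51, against 0.05 and 0.29 before stimulation (adjusted p = 0.00131 against 0). The change of 0.49 passed (adjusted p = 0.0354) but not without stimulated replicate 1 (adjusted p = 0.181) or without unstimulated replicate 1 (adjusted p = 0.175). Over all probes of the gene the KLF11 change was called the other way, at -0.51 (adjusted p = 0.00284), and the stimulated ratio was 0.05. With the median of the probes the change was -0.32 (adjusted p = 0.646). INPP5D, a lipid phosphatase also known as SHIP1, was the lowest with -2.67 and -2.97, against 0.55 and 0.29. The groups did not overlap, and INPP5D fell by 3.24 (adjusted p = 3.17e-06). JUND and VEGFA were also lower after stimulation, with -1.81 and -1.48 and with -1.33 and -1.49.

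Of 31 EMT promoters, 4 were higher (12.9%) and 16 lower (51.6%), against 16.5% and 42.5% of all promoters. The higher end held DSP, which encodes the desmosomal protein desmoplakin, with 0.76 and 0.70 after stimulation and 0.98 and 0.89 before (adjusted p = 0.000258 against 0). Over all probes of the gene DSP was called lower, at -0.58 (adjusted p = 0.000272), and with the median of its probes 0.27 did not pass (adjusted p = 0.0511). The lower end held MYL9, a regulatory myosin light chain of contractile cells, with -2.64 and -2.50 against -0.42 and -0.44. All 9 MYL9 probes were measured and 8 of them were called lower, where 37.8% of all measured probes were. The promoter was chosen as the lowest of its list and its probes are not independent, so this count is a description. MYL9 fell by 2.14 (adjusted p = 9.06e-06), but with the normexp correction its change was -0.75 and did not pass (adjusted p = 0.0577). TAGLN, the smooth muscle protein transgelin, had -1.30 and -1.07 against -0.61 and -0.59, and it fell by 0.58 (adjusted p = 0.0105), which did not pass without stimulated replicate 1 (adjusted p = 0.0596). COL7A1, the anchoring fibril collagen, had -1.06 and -1.40 against -0.19 and -0.55. It fell by 0.86 (adjusted p = 0.00498), did not pass without stimulated replicate 2 (adjusted p = 0.0651), and within 250 bp of the start its stimulated values were 0.42 and 0.10.

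Of 36 promoters of lung epithelial genes, 4 were higher (11.1%) and 19 lower (52.8%), with a median 0.15 below that of all promoters and below it under the other scalings. CEBPA, a transcription factor of differentiating alveolar epithelium, was the highest with 0.68 and 1.21, against 0.88 and 1.01, so that the conditions overlapped. Over all probes of the gene it turned to -1.15. ETV5, an ETS factor of alveolar type II cells, was the lowest with -1.39 and -1.70 against 0.20 and -0.24 (adjusted p of the change = 0.000316). Within 250 bp of the start its ratio was -0.22 (adjusted p = 0.291) and its change 0.093 (adjusted p = 0.778), and with the median of the probes these were -0.21 and -0.22, and none of the 4 passed. FOXA2, a forkhead factor of lung epithelium, had -0.59 and -0.73 after stimulation and -0.28 and -0.33 before. Its mean was called lower (adjusted p = 0.000521), and the change of -0.36 was not called (adjusted p = 0.0609). The lower call was lost at -0.19 with centring on the mean, -0.05 with loess, -0.26 with normexp and -0.31 with the median of the probes. The value turned to 0.043 without centring and to 0.21 within 250 bp of the start, neither of which passed. A single measured FOXA2 probe of 14 was called higher, at 37 bp upstream of the start, with 1.37 and 2.03 in stimulated and 1.37 and 1.90 in unstimulated cells. FGB, the fibrinogen β chain, had no probe of 15 measured in the stimulated replicates, and its values of -0.19 and -0.06 come from signals not well above background.

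**Figure D3:**
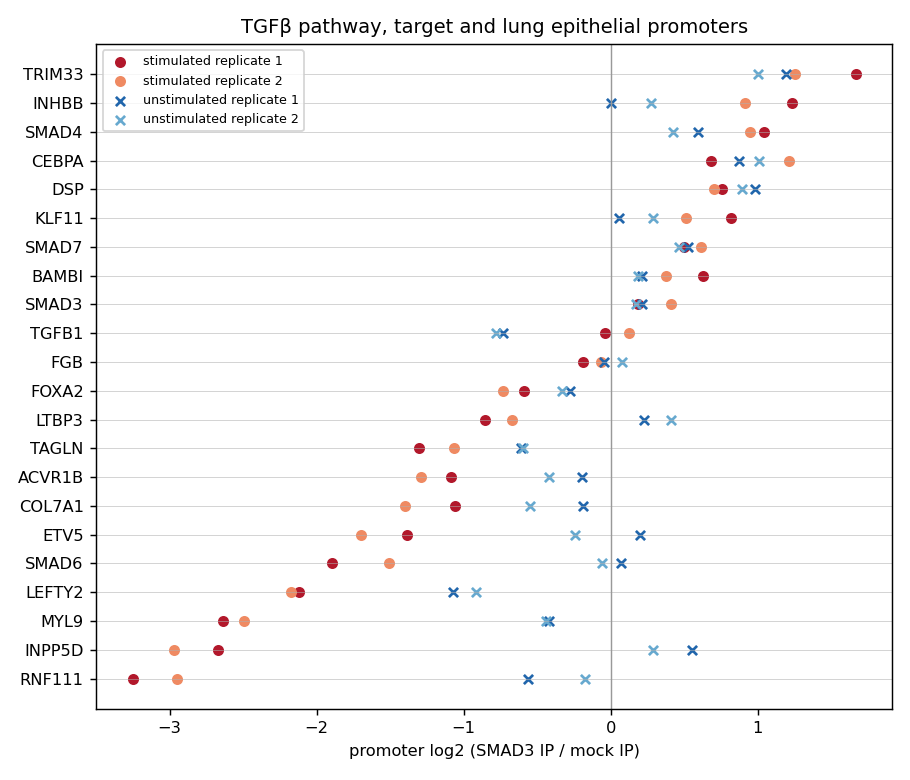
Promoter log2 ratio (SMAD3 IP over mock IP) for 22 promoters of the TGFβ pathway, its targets and lung epithelium, sorted by the stimulated mean, with a dot for each stimulated and a cross for each unstimulated replicate. TRIM33 and INHBB lie at the top and RNF111 at -3.25 and -2.95 at the bottom, and SMAD6, INPP5D and MYL9 lie far below their unstimulated crosses.

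The 437 promoters of genes that the study lists as bound after stimulation had 76 higher (17.4%) and 193 lower (44.2%), with a median of -0.13, or 0.05 above that of all promoters. The study called a gene bound from a local peak fitted to its probes, while the values here are means over the whole promoter window. Such a mean cannot show whether a local peak was present. The study chose this list on arrays of this experiment, so it is no independent evidence. Of the same promoters, 74 were called higher and 143 lower after stimulation than before, where 20.3% and 27.5% of all promoters were called.

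Families defined by their symbols differed in the share of higher promoters, where 16.5% of all promoters were higher and 42.5% lower. Ribosomal proteins had 18 of 75 higher (24.0%) and 28 lower, and subunits of the respiratory chain had 18 of 81 higher (22.2%) and 33 lower. Both medians lay above that of all promoters, by 0.05 and 0.09, and kept this sign under the other scalings, while within 250 bp of the start the median of the respiratory chain lay at -0.18 relative to all promoters and that of ribosomal proteins at -0.0011. Keratins, the intermediate filaments of epithelia, had 1 of 48 higher (2.08%) and 32 lower (66.7%), and their median of -0.55 was 0.37 below that of all promoters. HOX genes had 3 of 39 higher and 23 lower, and collagens 4 of 38 higher and 21 lower, and these medians were also below that of all promoters under each scaling, though that of HOX genes was 0.06 above it within 250 bp of the start. Chemokines had 1 of 35 higher and 17 lower. Olfactory receptors, which are silent in lung epithelium, had 8 of 284 higher (2.82%) and 100 lower (35.2%), while their median was 0.06 above that of all promoters and 0.18 below it with loess. The median share of measured probes in a promoter was 10% in olfactory receptors and 36.4% in keratins, against 55.6% over all promoters. It was 57.1% in HOX genes and 63.7% in collagens, and its part was not tested. In unstimulated cells 6.25% of keratins were higher and 54.2% lower, and of olfactory receptors 4.93% and 37.0%. Over all promoters these unstimulated shares were 20.7% and 38.1%. Zinc finger genes had 53 of 361 higher (14.7%) and 159 lower (44.0%) after stimulation, close to all promoters. The remaining lists stood at 4 higher and 13 lower of 54 histone genes, 3 and 15 of 30 integrins and laminins, 3 and 19 of 43 matrix metalloproteinases and their inhibitors, 6 and 14 of 32 cyclins and E2F factors, and 7 and 19 of 45 cytochromes P450.

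**Figure D4:**
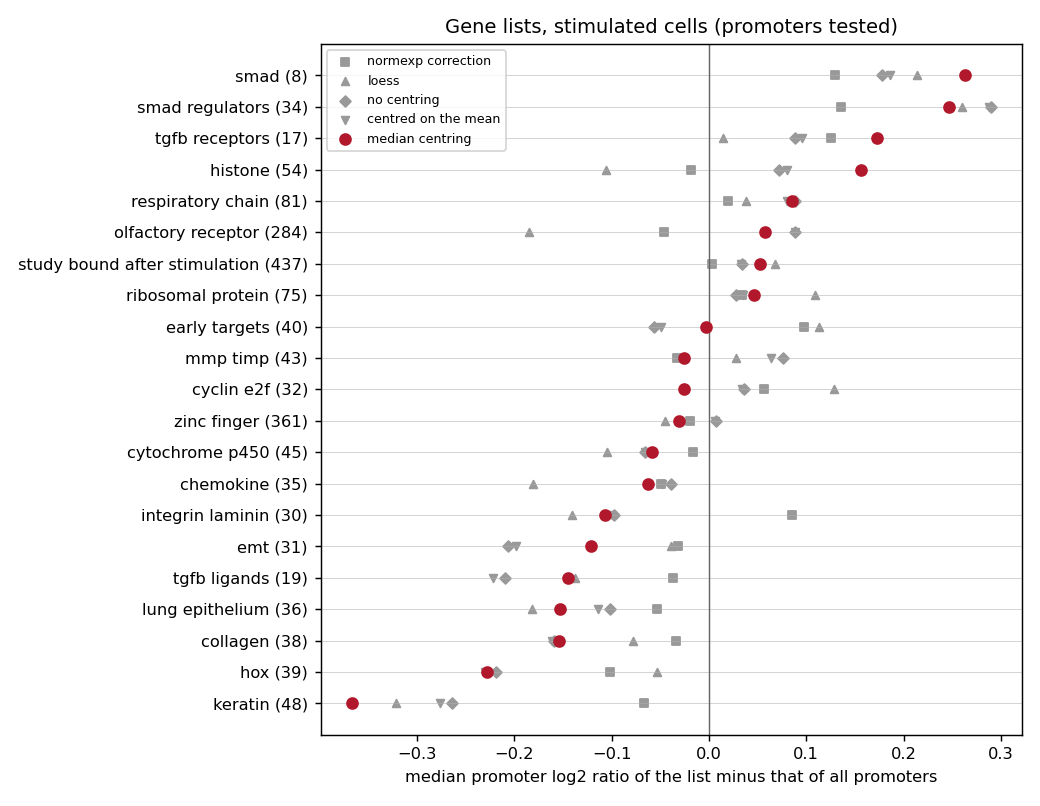
Median promoter log2 ratio of each gene list minus the median of all promoters in stimulated cells, in red with median centring and in grey under the other scalings, with the number of promoters tested in brackets. SMAD genes and SMAD regulators lie farthest to the right and keratins at -0.37 farthest to the left.

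The promoters with the largest ratios stood far from the pathway genes. They were chosen by these values, which are given as a description. LIPE, which encodes hormone-sensitive lipase, had 6.10 and 6.02 in the stimulated replicates and -0.26 and -0.47 in the unstimulated ones. C1orf131 had 5.44 and 5.01, against -2.94 and -3.10. ZNF673 had 5.28 and 5.09, against -0.20 and -0.04. RAD51C, a recombination factor of DNA repair, had 4.32 and 5.10, against -0.03 and -0.02. In each of the 4 the stimulated replicates were high together and the unstimulated ones at or below 0. In the unstimulated replicates only 3 of 8 probes of LIPE and 3 of 8 of RAD51C were well above background in both channels. Within 250 bp of the start, where its promoter is printed above, RAD51C had 6.39 and 7.04. With the normexp correction RAD51C had 2.15 (adjusted p = 0.14) and a change of 2.12 (adjusted p = 0.316), and the change of LIPE was 3.03 (adjusted p = 0.106).

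At the low end SPHK2, a sphingosine kinase, had -6.80 and -6.49 after stimulation and -4.06 and -4.14 before. TSFM, a mitochondrial elongation factor, had -6.21 and -5.93, against -0.55 and -0.47. ALG14, a subunit of an enzyme of N-glycan synthesis, had -5.44 and -5.67, against -0.31 and -0.20. TEX9 had -5.60 and -5.45, against 0.23 and -0.08. SPHK2 was low in both conditions, and TSFM, ALG14 and TEX9 lay between -0.55 and 0.23 in the unstimulated replicates. There only 2 of 5 TSFM, 2 of 10 ALG14 and 2 of 6 TEX9 probes were well above background in both channels. At the TEX9 probe 270 bp downstream the mock signals were 41836 and 47456 after stimulation and 92 and 95 before. The SMAD3 signals of this probe were 99 and 84 after stimulation and 67 and 57 before. All 4 measured SPHK2 probes and all 4 measured TSFM probes were called lower, in promoters chosen as the lowest, where 37.8% of all measured probes were.

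Among called promoters with at least 50% of their probes measured in both conditions, the 3 largest rises and the 3 largest falls were chosen by the difference and are described by it. C1orf131 rose by 8.25, ZNF673 by 5.30 and MYLPF, a myosin light chain of fast skeletal muscle, by 5.34 on the log2 scale. MYLPF had 3.32 and 3.21 after stimulation and -2.18 and -1.96 before, and within 250 bp of its start 6.93 and 6.77 in the stimulated replicates. LIN37, a subunit of the DREAM complex that represses cell cycle genes, fell by 7.86, from 3.94 and 3.77 to -3.96 and -4.04. IVD, a dehydrogenase of leucine breakdown, fell by 7.20, from 6.01 and 5.77 to -1.27 and -1.34. ARL2, a small GTPase of tubulin folding, fell by 6.28, from 4.62 and 4.24 to -1.91 and -1.78. That the conditions did not overlap in any of the 6 follows from this choice. With the normexp correction ZNF673 rose by 3.43 (adjusted p = 0.0511) and no longer passed.

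Runs of at least 3 neighbouring probes with a log2 ratio over 1 in both replicates numbered 1364 for SMAD3 IP in stimulated cells, and in 1110 of them every probe was measured. The same rule with the sign turned gave 5203 mock runs. In unstimulated cells there were 1665 SMAD3 runs and 5126 mock runs. The stimulated SMAD3 runs spanned a median of 432.5 bp. Of them, 738 (54.1%) came within 250 bp of a start, compared with 955 (18.4%) of the mock runs. In unstimulated cells these shares were 50.7% and 17.2%. Of 184192 measured probes, 30442 lay within 250 bp of a start. Every probe was measured in 2710 of the 5203 stimulated mock runs, against 1110 of the 1364 SMAD3 runs. Measured probes were more frequent near a start, and their part in this contrast was not tested. Of the stimulated SMAD3 runs, 421 (30.9%) shared a probe with an unstimulated SMAD3 run, while 422 (25.3%) of the unstimulated runs shared one with a stimulated run. A further 66 stimulated runs (4.84%) shared a probe with an unstimulated mock run. The numbers of runs moved with the scaling, and with loess there were 3186 SMAD3 and 2991 mock runs.

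Of the highest SMAD3 runs with every probe measured, 5 that lay within 10000 bp of a start had mean log2 ratios of 9.35 to 9.97 and are described by their nearest annotated gene. The run at HPCAL1, a neuronal calcium sensor, lay 1558 to 1879 bp upstream of the start, and its 3 probes had 11.09, 9.59 and 8.21 in replicate 1 and 11.68, 10.69 and 7.73 in replicate 2. The probe 1879 bp upstream had processed SMAD3 signals of 1094660 and 1022430 and mock signals of 380 and 201 in the stimulated replicates, and SMAD3 signals of 133 and 147 in the unstimulated ones. The run at TCEAL7 began 438 bp downstream of the start, with means of 9.72 and 9.14 against -0.96 and -0.84 in unstimulated cells. The run at SUSD3 began 4913 bp upstream of the start, with 9.70 and 9.12 against -0.24 and -0.56. PRKACG, a catalytic subunit of protein kinase A, had a run that began 1671 bp downstream with 9.11 and 9.58 against 0.04 and -0.21. KIAA0753, a protein of centriolar satellites, had a run that began 3965 bp downstream with 10.57 and 9.37 against 0.07 and -0.23. None of the 5 runs came within 250 bp of a start, and none had a mean over 1 in an unstimulated replicate.

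**Figure D5:**
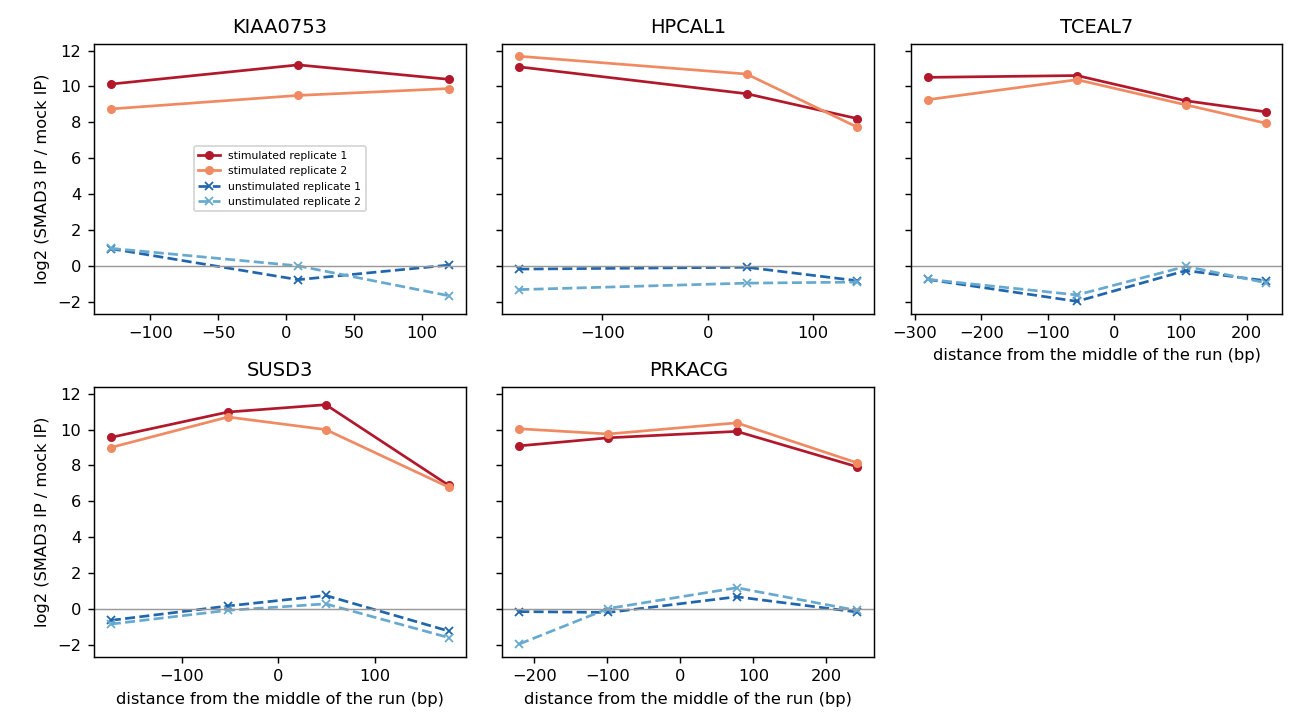
Log2 ratio (SMAD3 IP over mock IP) at each probe of 5 of the highest SMAD3 runs of stimulated cells, by distance from the middle of the run. Solid lines are the stimulated replicates, all between 6 and 12, and dashed lines the unstimulated replicates, which lie far below them at every probe. In every run but that at TCEAL7, some unstimulated values come from probes not well above background in both channels.

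The promoter sequences were compared with the ratios within 250 bp of the start. Of 9001 such promoters, 7181 matched a RefSeq promoter of GRCh38.p14 by symbol or synonym, from 250 bases before to 50 after the start, and the start used by the array can differ from it. Promoters called higher held a median of 66.7% G and C, those called lower 61.3% and those not called 60.3%. Among the 1408 promoters with the most G and C (71.3% or more), 46.5% were called higher and 19.6% lower, with median log2 ratios of 0.35 in both stimulated replicates. Among the 1472 with the least (52% or less), 13.2% were higher and 27.9% lower, with -0.05 and -0.07. The mean share of measured probes was 35.7% in the poorest and 89.0% in the richest group, and its part was not tested. In the unstimulated replicates the richest group had medians of 0.56 and 0.54.

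The pentamer CAGAC or its reverse complement GTCTG was found in 44.4% of promoters called higher, 49.45% of those called lower, 43.5% of those not called and 45.0% of all RefSeq promoters. Over all tested and matched promoters this share was 45.5%. The octamer GTCTAGAC, in which GTCT is followed directly by its reverse complement AGAC, was in 0 of 2131 promoters called higher. It was in 0.0956% of those called lower, 0.27% of those not called, 0.139% of all tested and matched promoters and 0.201% of all RefSeq promoters. With shares this small the 0 is not read as a difference. The hexamer GGCGCC equals its own reverse complement and is made of G and C alone. It was in 33.0% of promoters called higher, 19.8% of those called lower and 22.1% of those not called. Over all tested and matched promoters it was in 24.6%, and over all RefSeq promoters in 19.0%. A match is a description of the letters in this window and not of a binding site.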

How the data were processed

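DNA of SMAD3 IP (Cy5) and mock IP (Cy3) was hybridised to 2-colour Agilent promoter arrays, with 2 replicates per condition on 2 slides each. Per the file headers, the deposited intensity of each spot and channel had been background-subtracted, detrended and scaled per dye by the authors with Agilent Feature Extraction 9.5.1.1, and signals near background had been replaced by surrogates. The authors also deposited a table of log2 ratios, which differed from the ratio of the processed intensities by at most 3.13e-06. The array annotation names no genome build, so no array coordinates are given. The paper's results give a shorter stimulation time than its methods and the labels, which give up to 2 h.

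Control spots and 1404 outlier probes were left out, which left 473007 of 474411 probes of 44 to 60 bases. Log2 ratios were centred per array on the median (0.40 to 0.72 on the stimulated arrays). Groups were taken from the labels. Promoter means, with at least 3 probes, and single probes were fitted with limma 3.58.1 (lmFit, eBayes) in R 4.3.3 over all 4 replicates, without a replicate block, with Benjamini-Hochberg adjustment at 0.05. On simulated data of 16299 promoters with 200 shifted by 1, all (100%) of the enriched and 99.5% of the changed promoters were recovered, with 23 and 24 false calls. For a shift of 0.5 these shares were 73.5% and 0.5%. Runs joined at least 3 probes at most 500 bp apart. Tables were made in Python 3.11.15 with pandas 2.3.3, numpy 2.4.6 and scipy 1.17.1, and figures with matplotlib 3.10.9.

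Named promoters were SMAD3, SMAD6, SMAD7, TGFB1, LTBP3, COL7A1, TAGLN, FOXA2 and FGB, the highest and lowest called of 7 lists, and, with at least 5 probes of which at least 50% were measured, the 4 highest, the 4 lowest and, with this filter in both conditions, the 3 largest rises and falls. The genes at the 6 highest runs with every probe measured were also named, of which 1 is not reported here. SKI, CREBBP, TGFBR1, JUND and VEGFA were added after their values were seen. The members and the 21 lists were chosen with earlier results of these data known. The alternatives were normexp (offset 50), loess, no or mean centring, filters on dim probes, other windows and summaries, other limits for runs, fits per slide, a replicate block and leaving out each replicate. No counts lie behind these values, and the number of arrays limits their precision.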

Additional observations from a re-analysis of the deposited data

Results flagged for a closer look

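Of 34 promoters named above for other reasons than a run, 26 differed between stimulated and unstimulated cells by the limma contrast. Of these, 21 had been chosen by the size of their stimulated ratio or of this difference, so their number is a description and is not read against the share over all promoters. The differences, stimulated minus unstimulated on the log2 scale, were -1.71 for SMAD6, 0.80 for TGFB1, -1.08 for LTBP3, -0.86 for COL7A1, -0.58 for TAGLN, 0.49 for SMAD4 and -2.73 for RNF111. They were 0.94 for INHBB, -1.15 for LEFTY2, -0.88 for ACVR1B, 0.49 for KLF11, -3.24 for INPP5D, -2.14 for MYL9 and -1.52 for ETV5. Among the promoters with extreme ratios they were 4.74 for RAD51C, 5.30 for ZNF673, 8.25 for C1orf131, 6.43 for LIPE, -2.54 for SPHK2, -5.56 for TSFM, -5.30 for ALG14, -5.60 for TEX9, 5.34 for MYLPF, -7.86 for LIN37, -7.20 for IVD and -6.28 for ARL2.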

How the results depend on the processing

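The number of calls depended on the scaling, the background correction and the probe summary, and the cause was not tested. In stimulated cells the promoters called higher (2692) became 6993 with loess, 9900 without centring, 7351 with centring on the mean, 1221 over all probes of a gene and 640 with the median of the probes. Those called lower (6931) became 1727 with normexp, 3372 with loess, 2628 without centring, 3863 with centring on the mean, 2698 within 250 bp of the start and 2206 with the median of the probes. The promoters that rose (3304) and fell (4479) with stimulation became 659 and 1013 with normexp, 1586 and 2253 within 250 bp of the start, and 780 and 1007 with the median of the probes. The probes called higher became 11461 with normexp, 58440 with loess, 220754 without centring and 154068 with centring on the mean, and those called lower 20067 with normexp and 57028 with loess.

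With 1 replicate left out in turn, 1660 to 2711 promoters were higher and 5003 to 7001 lower, 2309 to 3017 rose and 3320 to 4032 fell, and 23595 to 28781 probes were higher and 57090 to 63677 lower. The lowest number of higher promoters came without stimulated replicate 1, and without stimulated replicate 2 it was 1785. There were then 1824 to 1842 SMAD3 runs and 6735 to 7880 mock runs. SMAD3 and mock runs numbered 816 and 1493 with normexp, 3186 and 2991 with loess, 2953 and 3169 without centring, 458 and 2205 with at least 4 probes, and 433 and 2492 with a log2 ratio over 2, and centring on the mean gave 2234 SMAD3 runs. The mean log2 ratio of the 5 named runs was 6.36 to 8.65 with normexp.

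The correlation of neighbouring probes at 100 to 150 bp (0.403 for the replicate mean) was 0.434 with normexp, 0.397 with loess, 0.436 over probes measured in both channels, 0.370 over those measured in at least 1, and 0.385 to 0.403 with a replicate left out. The median within 250 bp of the start minus that of all probes (0.03) was 0.049 with normexp, 0.22 with loess, 0.049 without centring, 0.047 with centring on the mean, 0.60 over probes measured in both channels, 0.59 over those measured in at least 1, 0.035 on slide 1 and 0.0080 on slide 2. The difference between the promoters richest and poorest in G and C (0.45) was 0.48 with centring on the mean, 0.98 with loess, 0.48 without centring, 0.51 with normexp, 0.67 and 0.54 with the filters on at least 1 and on both channels, 0.51 on slide 1, 0.40 on slide 2 and 0.41 to 0.45 with a replicate left out.

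Of the named promoters, signs turned over all probes of the gene for SMAD3 (-0.032), SMAD7 (-0.31), TGFB1 (-0.48), TRIM33 (-0.086), INHBB (-0.30), DSP (-0.58), CEBPA (-1.15) and the change of KLF11 (-0.51). They turned within 250 bp of the start for TGFB1 (-0.33), COL7A1 (0.26), FOXA2 (0.21) and the changes of COL7A1 (0.087) and ETV5 (0.093). They turned with the median of the probes for FGB (0.0081) and the changes of LTBP3 (0.10) and KLF11 (-0.32), and without centring for FOXA2 (0.043) and FGB (0.39). They also turned with centring on the mean for FGB (0.18), with normexp for LTBP3 (0.000767), over measured probes for ACVR1B (0.12) and its change (0.30), and without stimulated replicate 2 for TGFB1 (-0.037). Normexp ended 23 calls of named promoters, among them those of SMAD4 (0.51) and SMAD7 (0.18), and the median of the probes ended 21.

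The replicate numbers did not pair the samples, since the deviations of same-numbered samples correlated with 0.00883 on slide 1 and 0.0235 on slide 2. With a replicate block 2896 promoters were higher and 7258 lower, 3621 rose and 4821 fell, and no call of a named promoter was lost. The planned correction for the G and C share of each probe was not run, because probe sequences were not analysed here. Signal over background limits every ratio, and 38.9% of probes were measured in both stimulated replicates.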
